A study of Homo sapiens with 6 samples.

Results

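The proteasome is the protease that degrades most ubiquitin-tagged proteins of the cell. Its core particle is a barrel of alpha rings around beta rings, and 3 of the beta subunits carry the catalytic sites. In lymphoid cells, and in other cells after interferon, these are replaced by 3 immune subunits, which gives the immunoproteasome and changes the peptides that reach HLA class I molecules. A regulatory particle of ATPases and non-ATPase subunits binds, unfolds and admits ubiquitinated substrates, and separate activators open the core without ubiquitin.

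The genes described here are 40 genes of the core particle, the regulatory particle and the activators, immune subunits included, read by every probe set annotated to 1 of them alone. Of the 40 listed genes 35 had such a probe set, with 66 probe sets in all, among 54675 on the array. PSMA6 and PSME2 were annotated only on probe sets that also name another gene, and PSMC5, PSMD7 and PSMD13 had no probe set under their name in the annotation used, so these 5 genes have no value here. The filter on low signal, a mean over the 6 arrays at or above the 40th percentile of all probe sets, kept all 35 genes and 65 of the 66 probe sets, out of 13630 genes and 32771 probe sets tested. The dimmest of the 35 genes had a mean signal of 373, and 5167 of the tested genes were as bright or brighter.

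The 6 samples of total RNA were measured on 1-colour Affymetrix arrays. In 3 of them the label was 231wCFry, which names 1 clone picked after puromycin selection from MDA-MB-231 cells transfected with wild-type COP rat Fry cDNA of 10791 base pairs, on a plasmid, for a Fry level like that of the mammary line MCF10A. The other 3 samples were untransfected MDA-MB-231, an established human breast cancer line, called parental here. The labels name no treatment for these cells, a clone with an empty vector is not among these samples, and the samples of each line differed in passage number. Both lines grew as monolayers to 70% confluence in the same medium. The passage of each sample is not given, so p-values measure only the spread between these samples, and 3 arrays a group limit the precision of every value.

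The groups differed far beyond the transgene, and markers went against the label of the clone. Human FRY, whose 4 probe sets need not read the rat cDNA, had a signal of at most 5 on any 231wCFry-labelled array and at most 9.8 on any parental array, so it checks nothing about the transgene. Of 7 melanocyte and neural crest markers 6 were read, and their summed signal was 4227 to 4605 in the 231wCFry-labelled samples, against 370 to 442 in the parental samples. Of these 6 markers 5 were called higher in the 231wCFry-labelled samples, with SOX10 at 1395 ± 22.3 in the 231wCFry-labelled samples and 0.433 ± 0.321 in the parental samples (SD, n = 3 each). PMEL was not called and near background, at 5.17 in the 231wCFry-labelled samples and 10.8 in the parental samples. MLANA and TYR were called but dim in the 231wCFry-labelled samples (means 35.5 and 25.5). MITF, at 399 ± 39.8 in the parental samples, made up most of the parental sum. The summed signal of 5 simple-epithelial markers was 1514 to 1626 in the 231wCFry-labelled samples, against 6172 to 6841 in the parental samples. Of the 5, 4 were called lower, and KRT19 was at 1.1 ± 0.346 in the 231wCFry-labelled samples and 1669 ± 43.5 in the parental samples. KRT18 stayed bright, at 1507 ± 56.5 in the 231wCFry-labelled samples and 2992 ± 191 in the parental samples. It made up most of the 231wCFry-labelled sum. CDH1 was not called and near background, at 6.73 in the 231wCFry-labelled samples and 9.73 in the parental samples. Blood cell markers, of interest because blood cells carry immunoproteasome, were dim in both groups: 7 of 8 were read, 3 of them under the signal filter with PTPRC, the marker of all white blood cells, among them, and the sums were 35.9 to 45.8 in the 231wCFry-labelled samples and 44 to 47.7 in the parental samples. RNA quality, read as the GAPDH control's 3′ over 5′ signal, was 1.24 to 1.33 in the 231wCFry-labelled samples and 1.36 to 1.39 in the parental samples. All 3 arrays labelled 231wCFry share these features, so no difference between the groups can be given without them, and effects of Fry, of the clone and of another cell identity cannot be told apart. In RNA of whole cultures, fewer cells of a type and less RNA per cell cannot be told apart either.

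The proteasome genes showed small differences in both directions. At a Benjamini-Hochberg adjusted p under 0.05 in limma, adjusted over all probe sets tested, 5 of the 35 genes were higher in the 231wCFry-labelled samples, 12 were lower and 18 were not called. That is 48.6% called, against 67.1% of all genes tested, and 64.8% of the genes at least as bright as the dimmest proteasome gene. By direction, 14.3% were higher and 34.3% lower, against 34.1% and 33.1% of all genes tested and 31.4% and 33.4% of those at least as bright. The log2 changes of the 35 genes, each read by its brightest probe set on the log2(signal + 16) scale, ran between -0.71 and 0.45. On these probe sets none reached 1 in size, against 23.2% of all genes tested and 14.6% of those at least as bright. The genes that reached 0.5 in size were 3 of the 35 (8.57%), all lower, against 48.2% of all genes tested. Their median log2 change was -0.12, against 0.01 over all genes tested, and the median size of a change was 0.23, against 0.48 (0.38 among genes at least as bright). The groups did not overlap in 27 genes (77.1%), 9 higher and 18 lower, against 73.1% of all genes tested (37% higher and 36.1% lower).

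**Figure D1:**
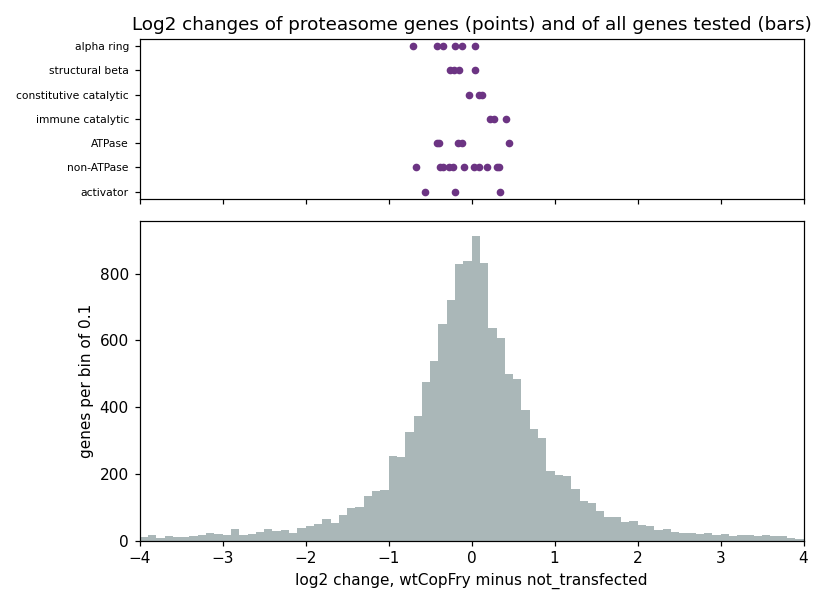
Log2 changes (231wCFry-labelled samples minus parental samples) of the 35 proteasome genes as points, 1 row per role, above the histogram of all 13630 genes tested in bins of 0.1. All proteasome genes lie within 1 of 0, while the bars run on beyond the plotted range of 4, which leaves out 263 genes.

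**Figure D2:**
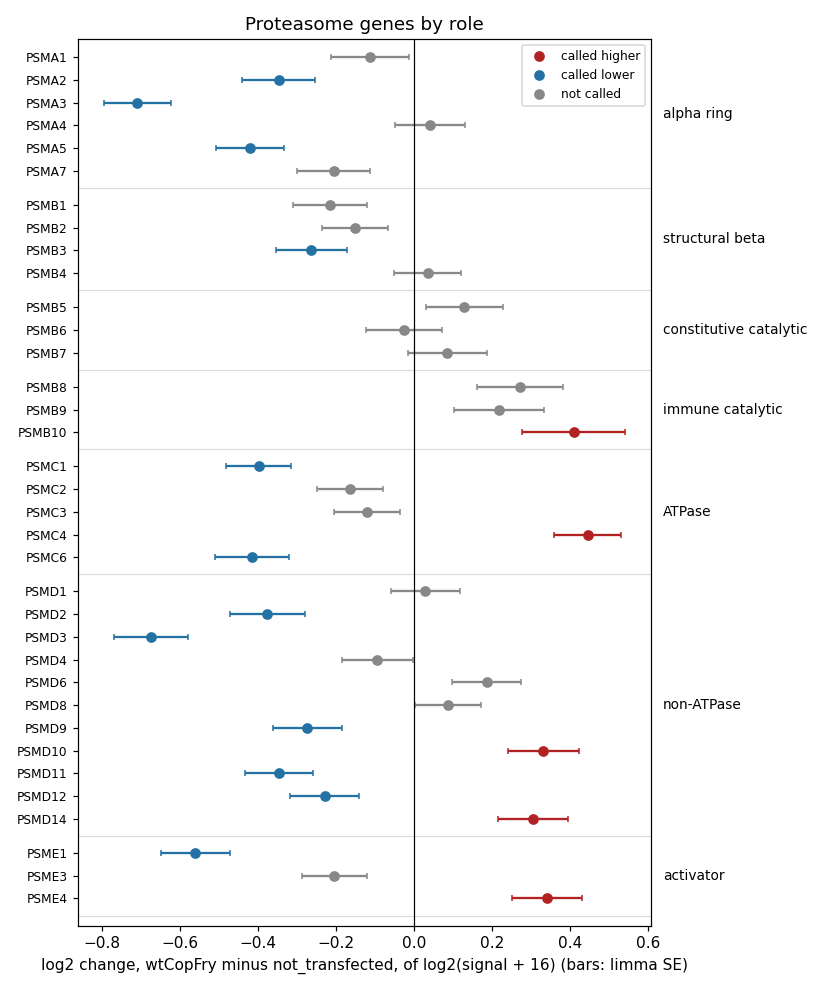
Log2 change of each proteasome gene, 231wCFry-labelled samples minus parental samples, as points with limma standard errors, grouped by role and coloured by call (adjusted p under 0.05). The 3 immune catalytic subunits lie to the right of 0, with PSMB10 called, while 12 genes in other roles are called lower.

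The sequences just before the starts of the immune catalytic genes and of PSME1, an activator gene that also responds to interferon, are shown because these genes are under interferon control in other settings and went different ways here. They run from 150 bases before to 30 after the annotated start, 5′ to 3′ on the gene's strand, from RefSeq on GRCh38.p14. Capitals mark matches on either strand to the core of the interferon-stimulated response element (GAAA, any 2 bases, GAAA), TTCNNNGAA (the gamma-activated site), TGACNNNGC (the antioxidant response element, bound by NFE2L1 and NFE2L2) or CCAAT.
PSMB8 promoter, chr6:32844650-32844829, minus strand: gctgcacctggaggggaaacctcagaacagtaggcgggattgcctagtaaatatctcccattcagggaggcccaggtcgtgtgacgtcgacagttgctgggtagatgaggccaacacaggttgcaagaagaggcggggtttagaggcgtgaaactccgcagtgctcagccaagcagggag
PSMB9 promoter, chr6:32854042-32854221, plus strand: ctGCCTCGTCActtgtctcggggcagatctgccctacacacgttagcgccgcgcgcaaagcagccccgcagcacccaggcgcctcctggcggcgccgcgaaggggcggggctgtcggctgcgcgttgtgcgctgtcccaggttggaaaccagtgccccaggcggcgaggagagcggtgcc
PSMB10 promoter, chr16:67936821-67937000, minus strand: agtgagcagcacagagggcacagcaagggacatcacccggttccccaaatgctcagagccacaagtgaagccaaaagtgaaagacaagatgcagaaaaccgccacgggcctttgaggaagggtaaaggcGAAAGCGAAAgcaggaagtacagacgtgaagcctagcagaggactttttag
PSME1 promoter, chr14:24136044-24136223, plus strand: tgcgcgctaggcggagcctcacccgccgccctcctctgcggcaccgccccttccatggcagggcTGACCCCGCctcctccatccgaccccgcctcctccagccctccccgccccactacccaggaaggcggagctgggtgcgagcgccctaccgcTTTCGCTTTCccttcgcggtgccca

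PSMB10 holds the interferon-type letters 21 to 12 bases before its start, and PSME1 holds them on the opposite strand 6 to 15 bases after its start. The antioxidant-type match of PSMB9 lies 148 to 140 bases before its start, and that of PSME1 86 to 78 bases before. PSMB8 shows no match in the stretch printed. A promoter window of 300 bases (250 before to 50 after the start, the first listed for each gene) was found for 35 of the 40 genes. The core of the interferon-stimulated response element was in 5 of the 35 windows (PSMA4, PSMB4, PSMB10, PSME1 and PSME2), against 3.65% of 27305 promoter windows of named genes. The antioxidant-type letters were in 10 of 35 windows, against 13.6% of all, and were found in 2 of the 5 genes called higher, 5 of the 12 called lower and 2 of 13 not called that had a window. TTCNNNGAA was in 4 of 35 windows (7.88% of all), CCAAT in 17 (35.7%), the GC box GGGCGG in 24 (44.6%) and the ETS core CGGAAG in 20 (19.9%). Both strands were searched, matches of different motifs may overlap, and a match describes letters, not a bound site.

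The constitutive catalytic subunits stood at nearly the same level in both groups. PSMB5, which cuts after hydrophobic residues, had signals of 1056, 1129.7 and 1064 in the 231wCFry-labelled samples, against 1104, 954 and 917 in the parental samples. PSMB6, which cuts after acidic residues, had 2156, 2059.5 and 2416 in the 231wCFry-labelled samples, against 2113, 2313 and 2319 in the parental samples. PSMB7, which cuts after basic residues, had 3646, 3253 and 3976 in the 231wCFry-labelled samples, against 3250.5, 3427 and 3537 in the parental samples. In all 3 genes the groups overlapped. None of the 3 was called, with log2 changes of 0.13 (SE 0.10, adjusted p = 0.286), -0.03 (SE 0.10, adjusted p = 0.834) and 0.09 (SE 0.10, adjusted p = 0.487). A further probe set of PSMB7 was near background, at 4.4 ± 1.25 in the 231wCFry-labelled samples and 12 ± 1.75 in the parental samples (SD, n = 3 each), and was called lower (adjusted p = 0.00229).

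All 3 immune catalytic subunits were well above the signal filter in both groups and read slightly higher in the 231wCFry-labelled samples. PSMB8, which replaces PSMB5, had signals of 1286, 1238 and 1332 in the 231wCFry-labelled samples, against 1107, 1178 and 915 in the parental samples. PSMB9, which replaces PSMB6, had 718, 711 and 715 in the 231wCFry-labelled samples, against 632, 698 and 518 in the parental samples. PSMB10, which replaces PSMB7, had 399, 431 and 449 in the 231wCFry-labelled samples, against 323, 377 and 259.5 in the parental samples. In each of them every 231wCFry-labelled sample lay above every parental sample, which also held for 37% of all genes tested. The highest parental sample (replicate 2) came close to the 231wCFry-labelled samples. PSMB10 alone was called higher (log2 change 0.41, SE 0.13, adjusted p = 0.022), while PSMB8 (log2 change 0.27, SE 0.11, adjusted p = 0.0558) and PSMB9 (log2 change 0.22, SE 0.12, adjusted p = 0.128) did not pass. The call of PSMB10 was lost without 231wCFry-labelled replicate 2 (adjusted p = 0.0583), 231wCFry-labelled replicate 3 (0.0681) or parental replicate 3 (0.0609), and with a pseudocount of 1 (0.055). Without parental replicate 2 both PSMB8 (log2 change 0.35, adjusted p = 0.0325) and PSMB9 (0.31, adjusted p = 0.0465) passed. Without parental replicate 3 they dropped to 0.17 (adjusted p = 0.171) and 0.10 (adjusted p = 0.397). Parental replicate 3 was the lowest and parental replicate 2 the highest of its group in all 3 immune genes. The same order held there for TAP1, at 768, 908 and 542, and IRF1, at 292, 322 and 225. It did not hold for the brightest probe set of TAP2, at 834, 759 and 697. How many of all genes share this order was not counted, so nothing is read from it.

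**Figure D3:**
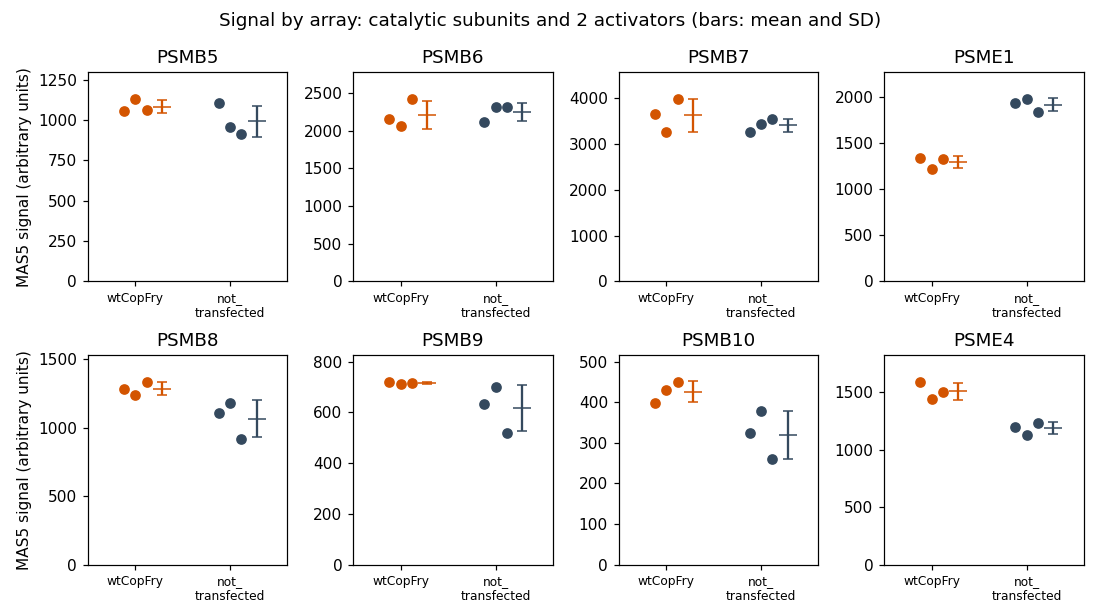
MAS5 signal (arbitrary units, axes from 0) of each array for the constitutive subunits PSMB5, PSMB6 and PSMB7, the immune subunits PSMB8, PSMB9 and PSMB10, and the activators PSME1 and PSME4. Points are arrays, 231wCFry-labelled samples left of parental ones, and bars are means with SD. PSME1 and PSME4 are well separated in opposite directions, and the immune subunits are separated by a narrow gap.

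The change of each immune subunit was then set against that of the subunit it replaces, as the per-array difference of their log2(signal + 16) values. The size of such a difference carries the brightness of the probes, so only its shift between groups was read. For PSMB8 minus PSMB5 the differences were 0.28, 0.13 and 0.32 in the 231wCFry-labelled samples, against 0.0044, 0.30 and -0.0026 in the parental samples. For PSMB9 minus PSMB6 they were -1.57, -1.51 and -1.73 in the 231wCFry-labelled samples, against -1.72, -1.70 and -2.13 in the parental samples. For PSMB10 minus PSMB7 they were -3.14, -2.87 and -3.10 in the 231wCFry-labelled samples, against -3.27, -3.13 and -3.69 in the parental samples. The groups overlapped in each pair. The shifts were 0.14, 0.25 and 0.32 toward the immune subunit in the 231wCFry-labelled samples, with two-sided exact permutation p of 0.3, 0.3 and 0.2 (0.3 for each after adjustment over the 3 pairs). The smallest p this design allows is 0.1, so it could not have passed 0.05. That p was reached by PSMB10 over PSMB7 with the mean over the probe sets of each gene, where the shift was 0.60 because the dim probe set of PSMB7 enters, and by PSMB9 over PSMB6 after quantile normalization, at 0.22.

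The alpha ring, which gates the entry to the core, held the largest change of all 35 genes. Of 6 genes read, 3 were lower, none was higher and 3 were not called, with a median log2 change of -0.28. Of all genes tested, 34.1% were higher and 33.1% lower, and nothing particular to a role is read from such small counts. PSMA3 had signals of 1429.8, 1357 and 1475 in the 231wCFry-labelled samples, against 2309, 2362 and 2324 in the parental samples, with no overlap (log2 change -0.71, SE 0.09, adjusted p = 7.03e-05). PSMA5 had 1264, 1160.3 and 1272 in the 231wCFry-labelled samples, against 1621, 1697 and 1639 in the parental samples (log2 change -0.42, SE 0.09, adjusted p = 0.00229). For PSMA2 the signal was 2181 ± 154 in the 231wCFry-labelled samples and 2775 ± 113 in the parental samples (log2 change -0.35, SE 0.09, adjusted p = 0.00946; SD, n = 3 each). PSMA7 lay below the parental samples in all 3 231wCFry-labelled samples without passing (-0.21, adjusted p = 0.0806). PSMA1 (-0.11) and PSMA4 (0.04) overlapped on the brightest probe set of each. The other probe sets of PSMA1 lay below the parental samples without passing (-0.17, adjusted p = 0.139, and -0.12, adjusted p = 0.245).

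Among the 4 structural beta subunits, which complete the inner rings, and beside 67.1% called of all genes tested, only PSMB3 was called. Its signals were 1882, 1860.2 and 2083 in the 231wCFry-labelled samples, against 2250.1, 2395 and 2348 in the parental samples (log2 change -0.26, SE 0.09, adjusted p = 0.0292), and the call was lost without 231wCFry-labelled replicate 1 or 2 or parental replicate 2 or 3 (adjusted p 0.0586 to 0.0941). PSMB1 (-0.22) and PSMB2 (-0.15) also lay below the parental samples on all 231wCFry-labelled arrays but did not pass on their brightest probe sets (adjusted p = 0.0739 and 0.147). The other tested probe sets of PSMB2 were both called lower (-0.96, adjusted p = 0.0111, and -0.58, adjusted p = 0.0128), and the mean over all 3 gave -0.57 (adjusted p = 0.00624). For PSMB1, 1 of the other 2 was called lower (-0.23, adjusted p = 0.0467). PSMB4 (0.04) overlapped.

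The ATPases, which form the ring that unfolds substrates, moved in both directions. Of 5 read, PSMC4 was higher, PSMC1 and PSMC6 were lower, and PSMC2 and PSMC3 were not called. Among all genes tested, 34.1% were higher and 33.1% lower. PSMC4 had signals of 1630.3, 1622 and 1691 in the 231wCFry-labelled samples, against 1262, 1171 and 1186 in the parental samples (log2 change 0.45, SE 0.09, adjusted p = 0.00142), the largest rise among the 35 genes. PSMC6 had 1682, 1457 and 1554 in the 231wCFry-labelled samples, against 2046, 2016 and 2206 in the parental samples (log2 change -0.42, SE 0.09, adjusted p = 0.00382). PSMC1 averaged 1577 ± 27.6 in the 231wCFry-labelled samples and 2083 ± 44.9 in the parental samples (log2 change -0.40, SE 0.08, adjusted p = 0.00234; SD, n = 3 each). PSMC2 (-0.16) and PSMC3 (-0.12) did not overlap with the parental samples either, yet missed the threshold on their brightest probe sets (adjusted p = 0.122 and 0.243). The other 2 probe sets of PSMC2 were both called lower (-0.41, adjusted p = 0.0104, and -0.68, adjusted p = 0.00151), and the mean over all 3 gave -0.42 (adjusted p = 0.00121). PSMC4 and PSMC6, neighbours in the ring, went opposite ways.

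Of 11 non-ATPase genes read, 2 were higher, 5 were lower and 4 were not called, against 34.1% higher and 33.1% lower among all genes tested. PSMD3, a scaffold of the lid of the regulatory particle, had signals of 395, 418 and 392 in the 231wCFry-labelled samples, against 699.6, 659 and 598 in the parental samples (log2 change -0.68, SE 0.09, adjusted p = 1.87e-04). PSMD2, a large scaffold of its base, had 2146, 1995 and 2277 in the 231wCFry-labelled samples, against 2675, 2684 and 2986 in the parental samples (log2 change -0.38, SE 0.10, adjusted p = 0.00704). In both genes the groups stood well apart. The lid subunits PSMD11 (591 ± 32.6 in the 231wCFry-labelled samples, against 754 ± 6.39 in the parental samples; -0.35, adjusted p = 0.00669) and PSMD12 (702 ± 33.8 in the 231wCFry-labelled samples, against 826 ± 28.6 in the parental samples; -0.23, adjusted p = 0.0451) were lower too (SD, n = 3 each). PSMD12 was at the edge of the threshold and lost its call without any 1 of the arrays but 231wCFry-labelled replicate 2 (adjusted p 0.0585 to 0.133).

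Higher were PSMD14, the deubiquitinase that removes ubiquitin chains from substrates, and PSMD10, an assembly chaperone also called gankyrin. PSMD14 averaged 3218 ± 183 in the 231wCFry-labelled samples and 2598 ± 91.9 in the parental samples (log2 change 0.31, SE 0.09, adjusted p = 0.0142; SD, n = 3 each). PSMD10 averaged 691 ± 30.9 in the 231wCFry-labelled samples and 546 ± 31.7 in the parental samples (log2 change 0.33, SE 0.09, adjusted p = 0.0103; SD, n = 3 each). The dimmer probe set of PSMD10 overlapped between groups and was not called (0.13, adjusted p = 0.28). PSMD9, another assembly chaperone, was lower on its brightest probe set (882 ± 27.8 in the 231wCFry-labelled samples, against 1070.4 ± 58.5 in the parental samples; -0.27, adjusted p = 0.0229), a call that was lost without 231wCFry-labelled replicate 1 or 2 or parental replicate 1 or 2 (adjusted p 0.0605 to 0.0731). The ubiquitin receptor PSMD4 (-0.09) and the base scaffold PSMD1 (0.03) overlapped between groups on their brightest probe sets. The next brightest probe sets of PSMD4 lay below the parental samples without passing (-0.11, adjusted p = 0.316, and -0.14, adjusted p = 0.187). The lid subunits PSMD6 (0.19) and PSMD8 (0.09) were above the parental samples on all 231wCFry-labelled arrays without passing (adjusted p = 0.0918 and 0.4).

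The activators went in different directions. PSME1, a subunit of the interferon-inducible activator that works with the immunoproteasome, had signals of 1341, 1222 and 1325 in the 231wCFry-labelled samples, against 1934, 1979.6 and 1844 in the parental samples. Every 231wCFry-labelled sample lay far below every parental sample (log2 change -0.56, SE 0.09, adjusted p = 4.17e-04), so this gene fell, while PSMB10 rose and PSMB8 and PSMB9 did not pass. PSME4, an activator with roles in DNA repair and in the germ line, had 1588, 1444 and 1500.2 in the 231wCFry-labelled samples, against 1202, 1130.3 and 1236 in the parental samples (log2 change 0.34, SE 0.09, adjusted p = 0.00823), and its 3 probe sets were all called higher. PSME3, a nuclear activator, averaged 1157 ± 11.6 in the 231wCFry-labelled samples and 1336 ± 40.6 in the parental samples (SD, n = 3 each) and did not pass on its brightest probe set (log2 change -0.20, SE 0.08, adjusted p = 0.0577). Of its other 3 probe sets 1 was called lower (-0.55, adjusted p = 0.00101), and the mean over all 4 gave -0.30 (adjusted p = 0.00634).

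For several genes the probe sets did not give 1 answer. Of 19 genes with more than 1 tested probe set, 5 had all of them called the same way, 7 had some called and some not, and only PSMD9 had calls in both directions. Over the 65 probe sets 8 were higher and 24 lower, with 33 not called (of all probe sets tested, 30.3% were higher and 32.3% lower, 62.6% together). The log2 changes of probe sets of 1 gene lay at least 0.5 apart in 8 genes: PSMA2, PSMA3, PSMB2, PSMB7, PSMC2, PSMD9, PSMD11 and PSMD12. PSMD11 had the widest gap. Its second probe set had signals of 77.2, 74.8 and 72.6 in the 231wCFry-labelled samples, against 317, 328 and 268 in the parental samples (log2 change -1.81, SE 0.10, adjusted p = 3.69e-07), a ratio of 0.246, while the brighter one changed by -0.35. For PSMA2 the dimmer probe set had 295, 294 and 277 in the 231wCFry-labelled samples, against 640.2, 796 and 615 in the parental samples (log2 change -1.19, SE 0.11, adjusted p = 1.38e-05). The dimmer PSMD12 probe set averaged 368 ± 25.3 in the 231wCFry-labelled samples and 670.0 ± 19.9 in the parental samples (-0.84, adjusted p = 3.61e-05). A dim PSMA3 probe set averaged 21.4 ± 2.27 in the 231wCFry-labelled samples and 63.6 ± 21 in the parental samples (-1.05, adjusted p = 6.79e-04). Another of PSMA3, near background, was not called (0.24, adjusted p = 0.0644). The probe sets of PSMD9 crossed: the dimmer one averaged 427 ± 12.8 in the 231wCFry-labelled samples and 237 ± 14 in the parental samples (0.81, adjusted p = 3.83e-05), against the fall of the brighter one. Where in each transcript these probes lie is not given in the sources used here.

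**Figure D4:**
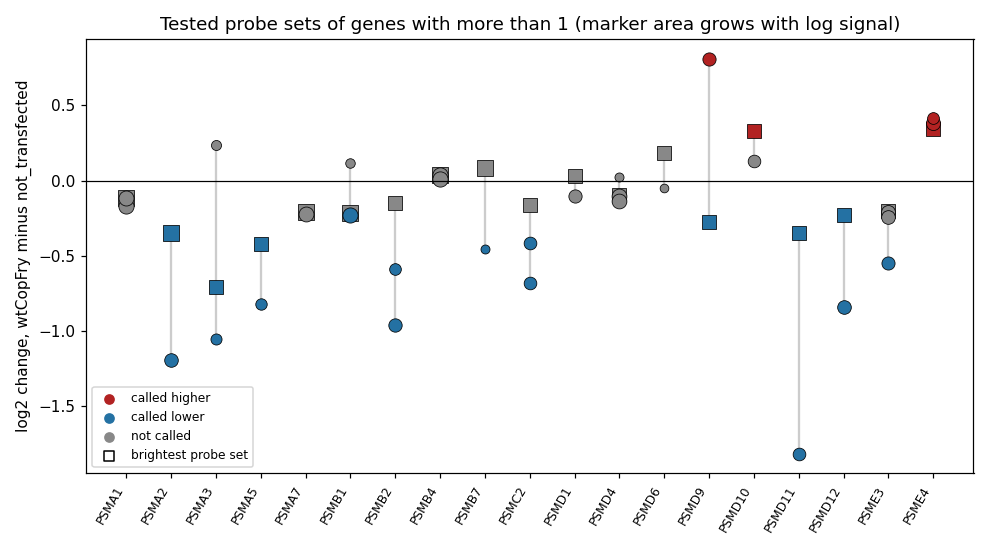
Log2 change (231wCFry-labelled minus parental samples) of each tested probe set of the 19 genes with more than 1, coloured by call, with the brightest probe set of a gene as a square and marker area growing with log signal. PSMD11, PSMA2, PSMB2 and PSMD12 have a dimmer probe set far below the square, and PSMD9 has 1 far above it. PSMA3 has a dim probe set on each side of its square.

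The genes called lower fell largely on 2 chromosomes, a grouping made after the values were seen. Of 5 genes on chromosome 14, PSMA3, PSMC1, PSMC6 and PSME1 were lower and PSMB5 was not called. Of 6 genes on chromosome 17, PSMB3, PSMD3, PSMD11 and PSMD12 were lower, and PSMB6 and PSME3 were not called. These 2 chromosomes thus held 8 of the 12 genes called lower and none of the 5 called higher. Among all their genes tested, 17.5% on chromosome 14 and 30.8% on chromosome 17 were called higher, against 34.1% of all genes tested. With so few proteasome genes there, nothing is read from the absence of higher calls or from the grouping of lower calls. Over all genes tested, 48.3% of 422 genes on chromosome 14 and 37.1% of 808 genes on chromosome 17 were called lower, against 32.3% of the other genes. By that share chromosome 14 ranked 3 and chromosome 17 ranked 8 among 23 chromosomes, whose shares ran between 12.8% (chromosome 22) and 53.7% (chromosome 4). The genes called higher lay on chromosome 2 (PSMD14 and PSME4, where 45% of 926 genes were higher), chromosome 16 (PSMB10, 49% of 604), chromosome 19 (PSMC4, 30.7% of 958) and the X chromosome (PSMD10, 49.9% of 465).

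**Figure D5:**
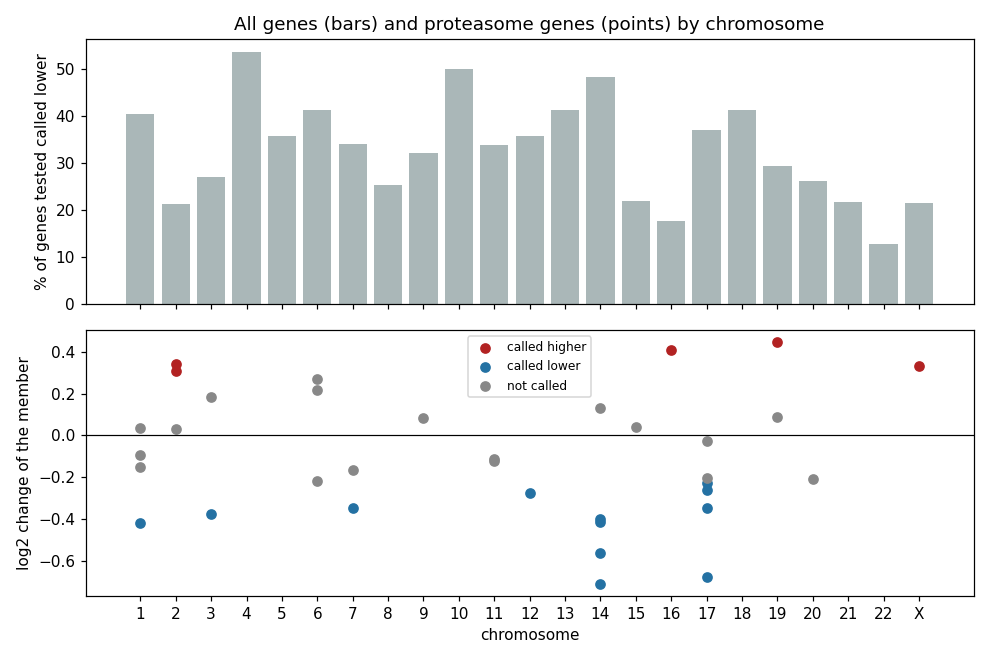
Above, the percentage of genes tested on each chromosome that were called lower in the 231wCFry-labelled samples. Below, the log2 change of each proteasome gene on its chromosome, coloured by call. The lowest points are on chromosomes 14 and 17.

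Genes that serve the proteasome were read from lists chosen alongside the subunits, and their counts stand beside 34.1% higher, 33.1% lower and 67.1% called among all genes tested. Nothing particular to a list is read from such small counts. Of 7 assembly factors, 2 were higher, 1 was lower and 4 were not called, with PAAF1, a factor that binds the ATPases during assembly, at 535 ± 30.6 in the 231wCFry-labelled samples and 259 ± 38.2 in the parental samples (log2 change 1.01, SE 0.12, adjusted p = 5.45e-05; SD, n = 3 each), the core assembly chaperone PSMG3 at a log2 change of 0.55 and PSMD5 at -0.27. PAAF1 was at 0.52 with the mean over its probe sets, the other of which was near background, at a mean signal of 7.83. PSMD5 lost its call with a pseudocount of 1 (adjusted p = 0.0635) and without any 1 of the arrays but parental replicate 2 (0.0578 to 0.114). POMP, the maturation factor of the core, was not called on its brightest probe set (0.18, adjusted p = 0.142), but was on another (0.54, adjusted p = 0.00369). Of 9 associated subunits, inhibitors, deubiquitinases and ligases, 2 were higher, 4 lower and 3 not called. The ubiquitin ligase UBE3C averaged 902 ± 94 in the 231wCFry-labelled samples and 1762 ± 33.1 in the parental samples (log2 change -0.96, SE 0.10, adjusted p = 2.89e-05; SD, n = 3 each) and changed by -0.62 over the mean of its probe sets, the deubiquitinase UCHL5 changed by 0.54 (adjusted p = 3.26e-04) and the thioredoxin-like TXNL1 by -0.40 (adjusted p = 0.00259). Of 5 ubiquitin shuttles read (7 listed), none was higher, 2 were lower (UBQLN4 at -0.39 and NUB1 at -0.44) and 3 were not called, UBQLN2 among them (-0.19). NUB1 had other probe sets called in both directions, the next brightest at 1.27, so its direction is not settled. UBQLN4 lost its call with the mean over its probe sets (-0.09, adjusted p = 0.226), the other one not being called (0.20). The ubiquitin gene UBB (-0.31, adjusted p = 0.0129) and the activating enzyme UBA1 (-0.24, adjusted p = 0.0341) were both lower, the only ones tested of 5 ubiquitin genes listed. UBA1 lost its call with the mean over its probe sets (-0.07, adjusted p = 0.457) and without 231wCFry-labelled replicate 2 or 3 or any 1 of the parental samples (0.0626 to 0.112). Its other tested probe set was near background, at a mean signal of 6.77. The testis subunit PSMA8 was below the signal filter, and PSMB11, of the thymus, was not read.

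Regulators of proteasome genes did not all move with the immune subunits. IRF1, a transcription factor that induces immunoproteasome genes after interferon, had signals of 133, 96.5 and 115 in the 231wCFry-labelled samples, against 292, 322 and 225 in the parental samples (log2 change -1.17, SE 0.15, adjusted p = 9.66e-05), and its other probe set was lower as well (-1.07). NLRC5, a transactivator of HLA class I genes, had 280.4, 269.6 and 262 in the 231wCFry-labelled samples, against 114, 135 and 111 in the parental samples (log2 change 1.08, SE 0.10, adjusted p = 1.10e-05). NFE2L2, the stress factor known as NRF2, rose slightly (0.27, adjusted p = 0.0224), a call lost with the mean over its probe sets (0.12, adjusted p = 0.201), without 231wCFry-labelled replicate 2 (0.0753) and without parental replicate 3 (0.061). The other NFE2L2 probe sets were dim, at mean signals of 71.4 and 8.85, against 773 for the brightest. NFE2L1, the factor that raises proteasome genes when the proteasome is blocked, was not called on any of its 3 probe sets (-0.10 on the brightest). In all, 2 of 7 regulators read (9 listed) were higher, 1 lower and 4 not called, beside the same 67.1% of all genes.

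Of 10 genes listed for the supply and loading of HLA class I peptides, 1 was higher, 4 were lower and 5 were not called, against 34.1% higher and 33.1% lower among all genes tested. ERAP2, a peptide-trimming enzyme of the endoplasmic reticulum, had signals of 448, 423 and 402 in the 231wCFry-labelled samples, against 129, 121 and 107 in the parental samples (log2 change 1.71, SE 0.10, adjusted p = 4.71e-07). The cytosolic peptidase BLMH averaged 125 ± 17.9 in the 231wCFry-labelled samples and 382 ± 5.35 in the parental samples (log2 change -1.50, SE 0.11, adjusted p = 2.23e-06; SD, n = 3 each). TAP1, 1 subunit of the peptide transporter encoded beside PSMB9, had 616, 642 and 525 in the 231wCFry-labelled samples, against 768, 908 and 542 in the parental samples and overlapped (-0.28, adjusted p = 0.187). Without parental replicate 3 TAP1 passed as lower (-0.48, adjusted p = 0.0102). TAP2, its partner encoded beside PSMB8, was lower on its brightest probe set (319.6 ± 25.3 in the 231wCFry-labelled samples, against 763 ± 68.4 in the parental samples; -1.21) and higher on another (431 ± 39.6 in the 231wCFry-labelled samples, against 189 ± 17.3 in the parental samples; 1.13), so its direction is not settled. B2M was not called on its brightest probe set (-0.14, adjusted p = 0.262) or the next brightest (-0.07), but passed as lower with the mean over its probe sets (-0.21, adjusted p = 0.0237). Only its dimmest probe set was called lower (-0.43). That one was near background, at 8.83 ± 3.87 in the 231wCFry-labelled samples and 17.3 ± 2.69 in the parental samples.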

How the data were processed

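The authors deposited linear signal intensities, for which the submitters' processing notes name MAS5. Its version and target value are not given in the sources. Trimming 2% at each end gave a mean of 150.02 on every array, so the arrays had been scaled globally. Probe sets were named through the platform annotation: of 54675, 62 were controls, 41091 named 1 gene, 1801 several and 11721 none, and 41043 matched RefSeq by Entrez identifier with no symbol changed.

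From these intensities log2(signal + 16) was computed, probe sets with a mean signal under the 40th percentile (5.87) were left out, and limma 3.58.1 (lmFit and eBayes, R 4.3.3) compared the 3 231wCFry-labelled with the 3 parental arrays. Calls are at a Benjamini-Hochberg adjusted p under 0.05 over all 32771 probe sets tested. An adjusted p of a gene is from this fit or, where an alternative is named, from limma under that alternative. A gene is read by its tested probe set with the highest mean signal among those naming it alone. The pairs of catalytic subunits were compared with exact permutation tests over 20 splits of the arrays. Fold changes understate those of dim probe sets, and levels are not compared between probe sets.

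All genes of the set read here are named. Per-array values are given for the catalytic subunits, PSME1 and, in each other role, up to 2 called genes with the largest change. Of each other list up to 3 genes with the smallest p are named, plus TAP1, TAP2 and IRF1; POMP, NFE2L1 and B2M were added for their roles after their values were seen. The members and lists were chosen with earlier results of these data known. In simulated data with the same 32771 probe sets, 100 were given log2 changes of 1, 100 changes of 0.5 and 32571 none. Of these, 80%, 13% and 0.006% were called. In the real data 62.6% of probe sets were called, which makes the cut on p looser, so the simulated shares do not describe this comparison. The alternatives tried were other pseudocounts, scalings, filters and probe set rules, a replicate block, and leaving out each array.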

Additional observations from a re-analysis of the deposited data

How the results depend on the processing

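Of the 17 genes called, 13 kept their call in every one of the 15 alternatives that gave a value, and PSMB10, PSMB3, PSMD9 and PSMD12 did not. Of the 18 not called, 9 passed in at least 1 alternative. The counts were 7 higher and 17 lower with a pseudocount of 64, 4 and 11 with a pseudocount of 1, and 7 and 13 after quantile normalization. Leaving out 1 array at a time gave 4 to 7 higher, 9 to 12 lower, 27 to 31 probe sets called and 18 to 20 called genes in the pathway lists. The shift between paired catalytic subunits then ran from 0.09 to 0.24 for PSMB8 over PSMB5, 0.11 to 0.32 for PSMB9 over PSMB6 and 0.16 to 0.44 for PSMB10 over PSMB7. With the mean over a gene's probe sets, PSMB7 turned to -0.19 and gained a call as lower (adjusted p = 0.0467 in limma), PSMD9 turned to 0.27 and was called higher (0.00953), and NUB1 turned to 0.0196 with its call lost (0.821). PSMD11 reached -1.08 under that rule, 7 proteasome genes were higher and 16 lower, and UBQLN4, UBA1 and NFE2L2 lost their calls. Without probe set types prone to cross-hybridise, 25 of the 35 genes were left with a median of 0.03, 21 member probe sets were called where 32 had been, fewer being tested, RAD23B turned to -0.32, and PSMA2 (-1.19) and PSMD11 (-1.81) passed 1 in size. PSMB8 was not read under that rule. With the replicate number as a block, 5 genes were higher and 11 lower, and PSMD12 alone lost its call (adjusted p = 0.0638 in limma). The deviations of arrays with the same number correlated at 0.07, 0.07 and 0.19, and those of arrays with different numbers at -0.134 to 0.079. For 231wCFry-labelled array 2, parental array 1 (0.079) and parental array 2 (0.074) gave nearly the same value. Whether the numbers pair the samples cannot be settled from such values. The block was not applied to the pairs of subunits. No scaling moved the median of all genes by over 0.1. Dim probe sets near background limit what can be read of the tissue-restricted subunits.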
